A study of Mus musculus with 15 samples.

Results

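Formative pluripotency is the state between the naive epiblast and cells primed for lineage entry, and mouse epiblast-like cells (EpiLCs) are its usual culture model. Changes of 9 genes that mark formative or primed cells were followed here through induction of ERK signalling and the addition of a MEK inhibitor: Fgf5, Otx2, Pou3f1, Foxd3, Sox3, Sox4, Zic2, Zic5 and Grhl2. They were taken by name, through their Ensembl identifiers, from a table of raw read counts with 52636 genes. All 9 passed the filter on low counts and were among the 13451 genes tested.

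RNA sequencing of ribosome-depleted total RNA covered 15 libraries of the mouse line CRAFR26, which carries an inducible c-RAF construct, so that 4-hydroxytamoxifen (4OHT) starts ERK signalling. Cells spent 48 h in EpiLC medium with bFGF at 12 ng/ml, Activin A at 20 ng/ml and the tankyrase inhibitor XAV939 at 1 µM. In every group, controls included, the FGF receptor inhibitor PD17 (250 nM) was on the cells for 2 h before the time course. The 0h group got no 4OHT (n = 3), and the 2h and 4h groups got 4OHT at 250 nM for 2 h and 4 h (n = 4 each). The rev group got 4OHT for 4 h and then a MEK inhibitor for 2 h (n = 4). It has no control of the same age without the inhibitor, so the inhibitor and the added time cannot be told apart. Libraries came from clone 4 (7) and clone 8 (8) of the line, with 2 of each clone in every group except 0h, which has 1 of clone 4 and 2 of clone 8. Each clone is a single line, and p-values measure the spread between these libraries.

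FGF ligands act through their receptors, RAS, RAF, MEK and ERK, and this cascade moves the naive epiblast into the formative state. OTX2 and POU3F1 (OCT6) are transcription factors that help to install the formative programme, FOXD3 takes part in closing naive enhancers, and GRHL2 keeps the enhancers of epithelial genes active. Fgf5 is itself the textbook RNA marker of the post-implantation epiblast.

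The 4h libraries were the shallowest, with 1552022 to 6658950 counts against 8667880 to 13004556 in the other 11. A single count was worth up to 0.611 CPM (counts scaled per library by the trimmed mean of M-values, TMM) at 4h and up to 0.141 elsewhere. Mitochondrial genes held 7.21% to 12.4% of counts at 4h and 2.67% to 6.98% elsewhere. All 4 ERK feedback and immediate early genes looked at (Spry2, Spry4, Dusp6, Egr1) were higher at 2h than at 0h, with Spry4 going from 0.856 ± 0.123 CPM (SD, n = 3) to 91.1 ± 34.5 CPM (SD, n = 4). Spry2, Spry4 and Dusp6 were lower in rev vs 4h and Egr1 was at -0.53 (log2; adjusted p = 0.437), and in rev all 4 were still above 0h, Spry4 at 14.0 ± 4.28 CPM (SD, n = 4). Among the defining EpiLC genes that are not members, Pou5f1 was at 168 ± 16.7 CPM and Dnmt3b at 935 ± 109 CPM at 0h (SD, n = 3). The level of Sox2, also on that list, is given with Sox3 below. In 4h vs 0h Pou5f1 was at -0.77 ± 0.12 (log2, SE; adjusted p = 3.09e-05, edgeR), while Dnmt3b fell and Sox2 rose, as given below. Marker lists of other cell types were low at 0h, with 5 neural genes summing to between 23.5 and 31.2 CPM, 6 mesendoderm genes to between 3.27 and 4.27 CPM and 5 primitive endoderm genes to between 4.01 and 5.09 CPM.

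The 9 genes did not move as a block. At 2h, Foxd3, Zic2, Zic5 and Pou3f1 rose and Grhl2 fell. At 4h against 0h, Otx2, Foxd3, Sox4, Zic2 and Zic5 were higher, while Fgf5, Sox3, Pou3f1 and Grhl2 were lower (on total counts the 4h values of Zic2 and Zic5 turn to lower, as given below). After the MEK inhibitor, Fgf5, Sox3 and Pou3f1 rose and Otx2 and Foxd3 fell. By edgeR's quasi-likelihood test at an adjusted p under 0.05, 5 of the 9 changed in 2h vs 0h, where 6.45% of all tested genes did. In 4h vs 0h all 9 changed, against 39.4% of tested genes, with 5 higher (20.5% of tested genes were) and 4 lower (18.9%). In 4h vs 2h 7 did, against 38.9%. In rev vs 4h 5 changed, against 30.8%, and in rev vs 0h 2 changed (Sox4 and Zic2, both higher), against 11.2%. The median log2 fold change of the 9 was 0.33 at 2h and 0.46 at 4h against 0h, where the median of all tested genes was 0.01 and 0.03. The members were gathered for opposed changes, so these counts describe them and compare them with nothing else.

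**Figure D1:**
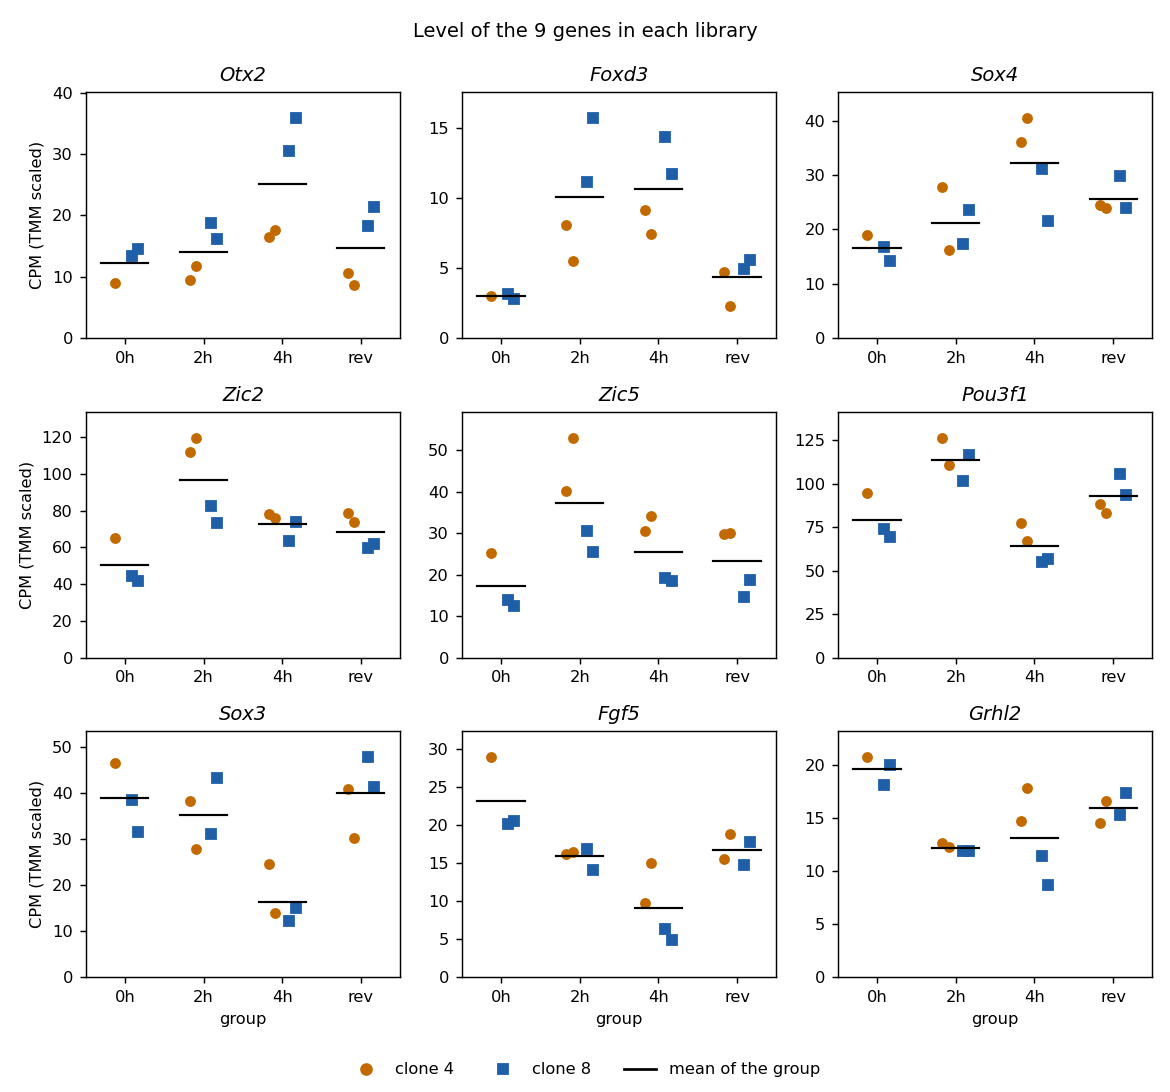
Level of each gene (vertical axis, CPM on TMM-scaled libraries, from 0) in the 15 libraries by group (horizontal axis); circles are clone 4, squares clone 8 and lines group means. Otx2 peaks at 4h with every clone 8 library above every clone 4 library of its group, Fgf5 and Sox3 are lowest at 4h, and Zic2, Zic5 and Pou3f1 peak at 2h.

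**Figure D2:**
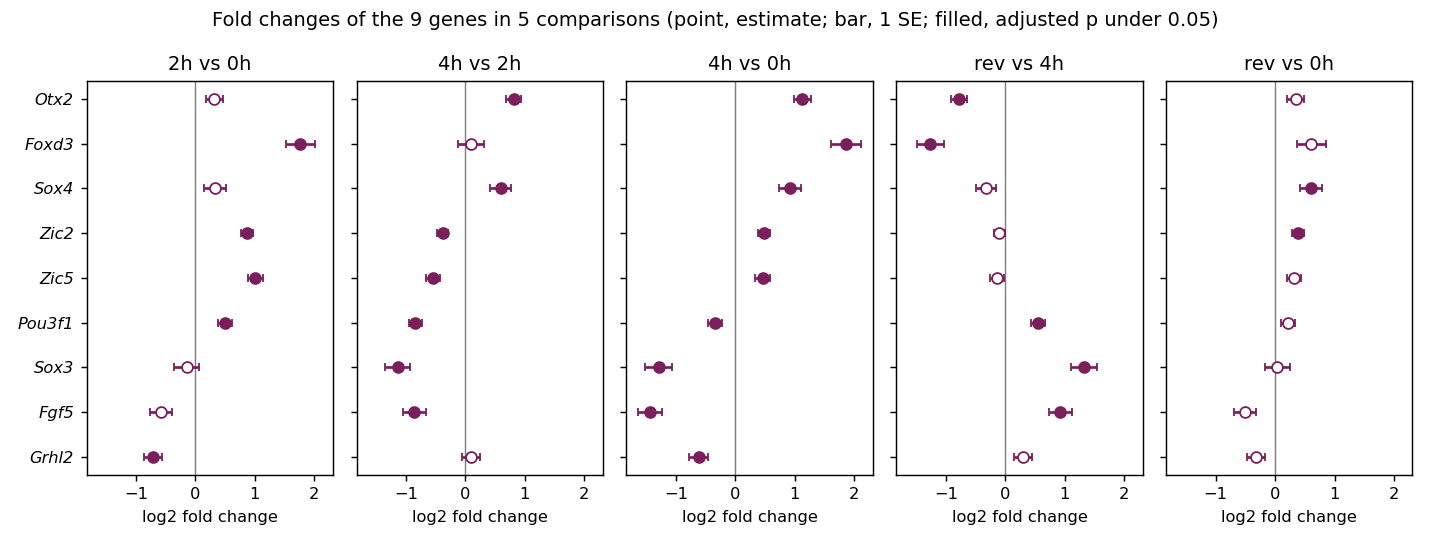
Log2 fold change (horizontal axis) of the 9 genes (rows) in 5 comparisons; points are estimates, bars 1 SE and filled points an adjusted p under 0.05 by edgeR's quasi-likelihood test. The 4h vs 0h panel runs from 1.86 for Foxd3 to -1.44 for Fgf5, and in it Zic2 and Zic5 turn to -0.24 and -0.29 when libraries are scaled by total counts.

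The scale of the 4h libraries bears on each of these values. The 9 most abundant genes took 48.9% to 77.9% of a library's counts, and scaling by total counts in place of TMM moved the median gene by -0.73 (log2) in 4h vs 0h. The shift was -0.57 in 4h vs 2h, and 0.45 in rev vs 4h. On total counts the 4h vs 0h value of Otx2 was 0.39 (adjusted p = 0.282, edgeR) and 1.11 relative to the median gene. Zic2 and Zic5 turned to -0.24 and -0.29, which is 0.49 and 0.44 relative to the median gene. With that scaling 5 of the 9 passed in 4h vs 0h (Fgf5, Sox3, Pou3f1 and Grhl2 lower, Foxd3 higher), where 49.8% of all tested genes did, 7.11% of those being higher. In 4h vs 2h 5 passed, all lower (Fgf5, Sox3, Pou3f1, Zic2 and Zic5), against 39.8% of tested genes. The step of Otx2 from 2h to 4h was then 0.27 (adjusted p = 0.452) and that of Sox4 0.04 (adjusted p = 0.928), so both calls end. Of the 9, 3 passed in rev vs 4h (Fgf5, Sox3 and Pou3f1 higher), against 23.5%, and in 2h vs 0h 1 did (Foxd3 higher), against 1.98%. In rev vs 0h 0 of the 9 passed by edgeR on total counts, against 5.72% of tested genes (2 of the 9 at an unadjusted p under 0.05; DESeq2 on its own size factors called 3). Values below are changes relative to the bulk of the transcriptome on the TMM scale. In bulk RNA, fewer cells that express a gene and less RNA per cell cannot be told apart.

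The ratio of Otx2 to Fgf5 counts within a library does not depend on that scaling. It was 0.308 in the clone 4 library and 0.668 and 0.71 in the clone 8 libraries of 0h. At 2h it was 0.58 and 0.715 in clone 4 and 1.11 and 1.14 in clone 8. At 4h it reached 1.69 and 1.16 in clone 4 and 4.79 and 7.31 in clone 8. The ratio was then highest in all 4 libraries of 4h within their own clone. In rev it was back at 0.683 and 0.456 in clone 4 and 1.24 and 1.21 in clone 8, within or close to the span of 2h. The pair was chosen because its changes are opposed, so the ratio is given without a test.

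Windows just upstream of start sites are shown for Otx2, Foxd3 and Fgf5, the matched genes that had a window without annotated exon bases. RefSeq start sites (GRCm38.p6) were matched for 5 of the 9 genes (Fgf5, Foxd3, Otx2, Sox4, Zic5), with 8 windows of 250 bases before the start in all. Of these, 3 hold no annotated exon base and are printed, 5′ to 3′ on the gene's strand. They are at chr14:48667645-48667894 (minus strand) for Otx2, chr4:99656049-99656298 (plus) for Foxd3 and chr5:98253934-98254183 (plus) for Fgf5. The Otx2 window precedes the most upstream of its matched RefSeq starts. It lies inside the annotated gene (chr14:48657677-48673819), not before its 5′ end. Capitals mark matches, on either strand, to 4 motifs: the ETS core CCGGAA, the cAMP response element TGACGTCA, the AP-1 site TGANTCA and the E-box CACGTG.
Otx2: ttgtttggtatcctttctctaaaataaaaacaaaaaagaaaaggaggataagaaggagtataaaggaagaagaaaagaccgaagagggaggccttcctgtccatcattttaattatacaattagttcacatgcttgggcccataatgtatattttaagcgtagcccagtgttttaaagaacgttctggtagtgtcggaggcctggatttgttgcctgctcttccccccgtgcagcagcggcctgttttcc
Foxd3: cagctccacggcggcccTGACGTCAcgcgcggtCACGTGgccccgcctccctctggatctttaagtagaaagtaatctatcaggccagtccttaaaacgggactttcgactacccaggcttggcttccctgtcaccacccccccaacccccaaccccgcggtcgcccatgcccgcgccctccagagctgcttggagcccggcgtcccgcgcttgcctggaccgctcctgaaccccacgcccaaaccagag
Fgf5: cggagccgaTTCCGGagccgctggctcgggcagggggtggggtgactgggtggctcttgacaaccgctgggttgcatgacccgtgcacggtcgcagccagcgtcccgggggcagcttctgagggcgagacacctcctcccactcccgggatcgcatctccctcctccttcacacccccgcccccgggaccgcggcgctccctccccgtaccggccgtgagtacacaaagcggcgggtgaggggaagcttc
Foxd3 holds TGACGTCA at 233 to 226 bases before its start, which 1.5% of all 32851 windows hold, and CACGTG at 217 to 212 bases, which 6.0% hold. Fgf5 holds the reverse complement of the ETS core, TTCCGG, at 241 to 236 bases before its start, a motif in 12.0% of windows. None of the 4 strings, AP-1 (6.7% of windows) included, is in the Otx2 window. G and C make up 70.8% of the Fgf5 window, 65.6% of the Foxd3 window and 42.0% of the Otx2 window, where the median of all windows is 52.4%. These matches describe letters only.

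Fgf5 (ENSMUSG00000029337, chr5:98254184-98277030 on the plus strand of GRCm38, 3 exons, no exon shared with another gene) encodes the secreted ligand FGF5. At 0h it stood at 28.9 CPM in clone 4 and at 20.1 and 20.5 CPM in clone 8. At 2h it was at 16.2 and 16.4 CPM in clone 4 and 16.8 and 14.1 CPM in clone 8. Its 4h level was 9.77 and 15.1 CPM in clone 4 and 6.37 and 4.9 CPM in clone 8, the last from 13 reads. All 2h and 4h libraries lay below all 0h libraries, while 4h overlapped 2h through 1 clone 4 library. In rev Fgf5 was at 15.5 and 18.8 CPM in clone 4 and 14.8 and 17.7 CPM in clone 8. Those 4 values sit around the 2h level and below all 3 of 0h.

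The fall of Fgf5 in 4h vs 0h was -1.44 ± 0.20 on the log2 scale (SE, adjusted p = 1.41e-05 by edgeR), 2.71-fold, and in 4h vs 2h it was -0.86 ± 0.19 (adjusted p = 0.00136). In rev vs 4h it rose by 0.93 ± 0.19 (adjusted p = 0.000977). In 2h vs 0h the value was -0.58 ± 0.19 (adjusted p = 0.0707), and in rev vs 0h -0.51 ± 0.19 (adjusted p = 0.0842). Both pass the threshold under 5 alternatives, among them DESeq2 (adjusted p = 0.0123 and 0.0211) and edgeR on the groups compared alone (adjusted p = 0.0156 and 0.00401), so neither side of the threshold is settled for them. Within clone 8 the fall from 2h to 4h was -1.43 ± 0.21 (adjusted p = 5.17e-05), and in clone 4 the value was -0.36 ± 0.20 (adjusted p = 0.197). The difference between the clones in this step was -1.07 ± 0.29 (adjusted p = 0.0497, edgeR) and ended without any 1 of 6 libraries: both of clone 4 at 2h, clone 8 replicate 1 at 2h, clone 4 replicate 2 at 4h (-0.69, adjusted p = 0.253) and both of clone 8 at 4h.

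Otx2 (ENSMUSG00000021848, chr14:48657677-48673819, minus strand) encodes a homeodomain factor of the epiblast and of the anterior brain. It shares 7.6% of its exon bases with the lincRNA Otx2os1 on the other strand and with Gm49154, and whether counting used strand is not given in the sources used here. At 0h it was at 8.91 CPM in clone 4 and 13.4 and 14.5 CPM in clone 8. At 2h it was at 9.42 and 11.8 CPM in clone 4 and 18.8 and 16.1 CPM in clone 8. Clone 4 was below clone 8 from the start, and each clone's 2h libraries lay above its 0h libraries. At 4h Otx2 stood at 16.5 and 17.5 CPM in clone 4 and at 30.5 and 35.8 CPM in clone 8, above all 0h libraries. In rev it was at 10.6 and 8.57 CPM in clone 4 and 18.3 and 21.4 CPM in clone 8, with no overlap with 4h inside either clone.

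On the TMM scale the rise of Otx2 came late. Its log2 fold change was 0.32 ± 0.14 in 2h vs 0h (adjusted p = 0.196), 0.81 ± 0.13 in 4h vs 2h (adjusted p = 5.97e-05) and 1.13 ± 0.15 in 4h vs 0h (2.18-fold, adjusted p = 3.98e-06, all edgeR). In rev vs 4h it fell by 0.78 ± 0.13 (adjusted p = 0.000121), to 0.34 ± 0.14 above 0h (adjusted p = 0.12). The clones differed in level, with clone 8 higher by 0.86 ± 0.10 (adjusted p = 1.83e-06), and a fit that ignores the clone loses the calls in 4h vs 2h (adjusted p = 0.0658) and in rev vs 4h (adjusted p = 0.104). In a fit with 1 mean per clone and group, the rise from 0h to 4h was 0.94 ± 0.23 in clone 4 (adjusted p = 0.00517) and 1.24 ± 0.18 in clone 8 (adjusted p = 4.59e-05). Clone 4 has a single library at 0h, so in each clone 4 value against 0h, and in each clone difference that uses it, that library is assumed to vary like those of the other groups. The difference between those responses was 0.31 ± 0.28 (adjusted p = 0.662).

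Pou3f1 (ENSMUSG00000090125, chr4:124656807-124660655, plus strand, 1 exon) encodes the POU factor OCT6. Antisense Gm2164 shares 8.6% of its exon bases. At 0h it was at 94.8 CPM in clone 4 and 73.7 and 69.3 CPM in clone 8, and at 2h at 126 and 111 CPM in clone 4 and 102 and 116 CPM in clone 8. Every 2h library was above every 0h library. At 4h it was at 77.6 and 66.9 CPM in clone 4 and 54.9 and 56.5 CPM in clone 8, below all 2h libraries and overlapping 0h. In rev it was at 88.1 and 83.3 CPM in clone 4 and 106 and 93.5 CPM in clone 8, above all of 4h.

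Pou3f1 thus rose and then fell while 4OHT was present. Its rise in 2h vs 0h was 0.50 ± 0.12 (log2, SE; adjusted p = 0.0124), and it fell by 0.84 ± 0.11 in 4h vs 2h (adjusted p = 5.01e-06) and rose by 0.55 ± 0.11 in rev vs 4h (adjusted p = 0.000721, all edgeR). By clone, the 2h vs 0h value was 0.32 in clone 4 (1 library at 0h), which did not pass, and 0.61 in clone 8 (adjusted p = 0.00718, edgeR). Its net value in 4h vs 0h was -0.34 ± 0.12 (adjusted p = 0.0294). The rise at 2h fails without clone 8 replicate 1 (adjusted p = 0.0602) or 2 (adjusted p = 0.0958) of 0h. The 4h vs 0h call fails without the clone 4 library of 0h (-0.22, adjusted p = 0.249), without clone 8 replicate 1 (adjusted p = 0.0877) or 2 (adjusted p = 0.0737) of 4h, and without the clone term (adjusted p = 0.0796).

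Foxd3 (ENSMUSG00000067261, chr4:99656299-99658622, plus strand, 1 exon) encodes a forkhead factor of the epiblast and the neural crest, and a miRNA gene on the same strand shares 3.8% of its bases. It had the largest fold change of the 9, on few reads. At 0h its level was 2.97 CPM in clone 4 and 3.14 and 2.79 CPM in clone 8, from 23 to 55 reads. At 2h it was at 8.06 and 5.48 CPM in clone 4 and 11.2 and 15.7 CPM in clone 8, and at 4h at 9.16 and 7.41 CPM in clone 4 and 14.3 and 11.7 CPM in clone 8. All 8 libraries with ongoing induction were above all 0h libraries. In rev it was at 4.69 and 2.27 CPM in clone 4 and 4.93 and 5.6 CPM in clone 8, below every 4h library.

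Foxd3 rose by 1.77 ± 0.24 (log2, SE) in 2h vs 0h, 3.4-fold (adjusted p = 8.5e-05), and stood at 1.86 ± 0.25 in 4h vs 0h (adjusted p = 8.07e-06, edgeR). By clone, the 2h vs 0h value was 1.18 in clone 4 (1 library at 0h), which did not pass, and 2.17 in clone 8 (adjusted p = 0.000157, edgeR). The step from 2h to 4h was 0.10 ± 0.22 (adjusted p = 0.751). Its rise from 0h to 4h was 1.45 ± 0.39 in clone 4 (adjusted p = 0.0097, 1 library at 0h) and 2.13 ± 0.31 in clone 8 (adjusted p = 4.73e-05). In rev vs 4h it fell by 1.26 ± 0.23 (adjusted p = 0.000281), to 0.61 ± 0.24 above 0h (adjusted p = 0.114). Clone 8 was higher than clone 4 by 0.62 ± 0.16 (adjusted p = 0.0104). Of 4 neural crest markers, 1 changed at 2h: Twist1 was 1.82 ± 0.31 higher (adjusted p = 0.000998), while Sox10 was at -0.27 and Tfap2a at -0.67 without passing, and Snai2 was too low to be tested. In 4h vs 0h Twist1 and Tfap2a were higher. The summed level of the 4, most of it Twist1, was between 3.02 and 3.27 CPM at 0h, 7.12 and 10.9 CPM at 2h, 5.28 and 20.2 CPM at 4h and 10.4 and 17.4 CPM in rev. None of the 4 was at 0 in every library of a group, and their part in the Foxd3 result was not tested.

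Sox3 (ENSMUSG00000045179, chrX:60891366-60893430, minus strand, 1 exon, no shared exon) encodes a SOXB1 factor close to SOX2. At 0h it was at 46.5 CPM in clone 4 and 38.4 and 31.5 CPM in clone 8, and at 2h at 38.1 and 27.8 CPM in clone 4 and 31.1 and 43.2 CPM in clone 8. These groups overlapped. At 4h it was at 24.4 and 13.8 CPM in clone 4 and 12.1 and 15.1 CPM in clone 8, below every library of the other groups. In rev it was at 40.8 and 30.1 CPM in clone 4 and 47.7 and 41.2 CPM in clone 8, across the span of 0h.

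Sox3 fell by 1.29 ± 0.23 in 4h vs 0h (log2, SE; adjusted p = 0.000337) and by 1.14 ± 0.21 in 4h vs 2h (adjusted p = 0.000565), and rose by 1.33 ± 0.21 in rev vs 4h (adjusted p = 0.000226, edgeR). The fall from 0h to 4h was -1.32 ± 0.28 in clone 4 (adjusted p = 0.00161, 1 library at 0h) and -1.37 ± 0.24 in clone 8 (adjusted p = 0.000309). In 2h vs 0h the value was -0.15 ± 0.21 (adjusted p = 0.745), and in rev vs 0h it was 0.04 ± 0.21 (adjusted p = 0.931). Sox2, its SOXB1 relative and partner of OCT4, went the other way: it stood at 22.3 ± 1.39 CPM at 0h (SD, n = 3), 58.1 ± 4.27 at 2h, 111 ± 30.2 at 4h and 51.3 ± 5.86 in rev (n = 4 each). From 0h to 4h it rose by 2.34 ± 0.13 (adjusted p = 4.18e-11), and Sox1, the neural SOXB1 gene, rose by 3.56 ± 0.29 (adjusted p = 9.86e-09).

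Sox4 (ENSMUSG00000076431, chr13:28948919-28953713, minus strand, 1 exon) encodes a SOXC factor. The lincRNA Gm26735 on the other strand shares 54.6% of its exon bases, so reads of the pair may not be separable. At 0h it was at 19.0 CPM in clone 4 and 16.8 and 14.2 CPM in clone 8, and at 2h at 27.8 and 16.2 CPM in clone 4 and 17.4 and 23.6 CPM in clone 8. The 4h libraries held 36.0 and 40.5 CPM in clone 4 and 31.2 and 21.5 CPM in clone 8, above all of 0h and across part of 2h. In rev 3 libraries lay between 23.9 and 24.6 CPM and clone 8 replicate 1 at 29.9 CPM, all above 0h.

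Sox4 rose by 0.92 ± 0.19 in 4h vs 0h (log2, SE; adjusted p = 0.000757, edgeR). Its step of 0.59 ± 0.17 in 4h vs 2h (adjusted p = 0.00991) fails without clone 4 replicate 2 of 2h (adjusted p = 0.0535) or of 4h (adjusted p = 0.0529). The value in rev vs 4h was -0.32 ± 0.17 (adjusted p = 0.17). In rev vs 0h Sox4 was 0.60 ± 0.19 higher (adjusted p = 0.0419), a call lost without any 1 of the 3 libraries of 0h or without clone 4 replicate 2 or either clone 8 library of rev, with adjusted p from 0.058 to 0.169. That call is also lost with DESeq2 size factors (adjusted p = 0.0532) and without the clone term (adjusted p = 0.075). The other SOXC genes, Sox11 (0.37 ± 0.13, adjusted p = 0.0255) and Sox12 (0.35 ± 0.11, adjusted p = 0.0147), were higher in 4h vs 0h on the TMM scale but at -0.32 and -0.35 on total counts.

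Zic2 (ENSMUSG00000061524, chr14:122475435-122479852, plus strand) and Zic5 (ENSMUSG00000041703, chr14:122456795-122465677, minus strand) encode zinc finger factors and lie next to each other, pointing apart. Zic2 at 0h was at 65.2 CPM in clone 4 and 44.4 and 41.9 CPM in clone 8, and at 2h at 112 and 120 CPM in clone 4 and 82.3 and 73.3 CPM in clone 8. At 4h it was at 78.2 and 75.8 CPM in clone 4 and 63.3 and 73.9 CPM in clone 8, and in rev at 78.8 and 73.9 CPM in clone 4 and 59.5 and 61.9 CPM in clone 8. Within each clone every 2h library was above all of 0h. Zic5 at 0h was at 25.3 CPM in clone 4 and 13.8 and 12.4 CPM in clone 8, and at 2h at 40.2 and 53.0 CPM in clone 4 and 30.4 and 25.5 CPM in clone 8. The 4h level of Zic5 was 30.5 and 34.1 CPM in clone 4 and 19.1 and 18.5 CPM in clone 8, and in rev at 29.7 and 30.1 CPM in clone 4 and 14.5 and 18.8 CPM in clone 8. Over all groups clone 8 overlapped clone 4 only through its 2h libraries for Zic5.

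Zic2 rose by 0.87 ± 0.11 in 2h vs 0h (log2, SE; adjusted p = 1.78e-05) and Zic5 by 1.01 ± 0.13 (adjusted p = 2.35e-05, edgeR). In 4h vs 2h Zic2 fell by 0.38 ± 0.10 (adjusted p = 0.00322) and Zic5 by 0.55 ± 0.12 (adjusted p = 0.000783). On the TMM scale both were still above 0h at 4h, Zic2 by 0.49 ± 0.11 (adjusted p = 0.000941) and Zic5 by 0.46 ± 0.13 (adjusted p = 0.00672), and both turn to lower on total counts. By clone, Zic2 was at 0.24 in clone 4 (1 library at 0h) and 0.67 in clone 8, and Zic5 at 0.36 and 0.52. The clone 8 values passed (adjusted p = 4e-04 for Zic2 and 0.0276 for Zic5, edgeR), while those of clone 4 did not. The Zic5 call in 4h vs 0h also fails without clone 8 replicate 2 of 0h (adjusted p = 0.0605) and with no filter on low counts (adjusted p = 0.111). In rev vs 4h the values were -0.10 ± 0.10 for Zic2 (adjusted p = 0.475) and -0.14 ± 0.12 for Zic5 (adjusted p = 0.377). In rev vs 0h Zic2 was 0.39 ± 0.10 higher (adjusted p = 0.019), a call that fails without clone 8 replicate 1 or 2 of 0h or of rev, with adjusted p from 0.0626 to 0.114.

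Zic2 and Zic5 were lower in clone 8 than in clone 4, by -0.40 ± 0.07 (adjusted p = 0.00031) and -0.82 ± 0.08 (adjusted p = 5.33e-07). Without the clone term, Zic2 loses its calls in 4h vs 2h (adjusted p = 0.0605) and rev vs 0h (adjusted p = 0.145), and Zic5 loses those in 2h vs 0h (adjusted p = 0.114), 4h vs 0h (adjusted p = 0.245) and 4h vs 2h (adjusted p = 0.221).

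Grhl2 (ENSMUSG00000022286, chr15:37233036-37363569, plus strand, 17 exon blocks, 2.0% of exon bases shared with antisense Gm16136) encodes a grainyhead factor that keeps epithelial enhancers open. At 0h it was at 20.7 CPM in clone 4 and 18.1 and 20.0 CPM in clone 8, and at 2h at 12.6 and 12.2 CPM in clone 4 and 11.9 and 11.8 CPM in clone 8. The 2h libraries were close together and all below 0h. At 4h it was at 14.7 and 17.8 CPM in clone 4 and 11.4 and 8.67 CPM in clone 8, still below 0h and on either side of 2h. In rev it was at 14.5 and 16.6 CPM in clone 4 and 15.2 and 17.3 CPM in clone 8, between 2h and 0h.

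Grhl2 fell by 0.72 ± 0.15 in 2h vs 0h (log2, SE; adjusted p = 0.00562) and was lower by -0.62 ± 0.16 in 4h vs 0h (adjusted p = 0.00428, edgeR). The 4h vs 0h value was -0.34 ± 0.21 in clone 4 (adjusted p = 0.249, 1 library at 0h) and -0.91 ± 0.18 in clone 8 (adjusted p = 0.000999), and the difference of -0.58 ± 0.28 between the clones did not pass (adjusted p = 0.32). With the clones pooled, the values in 4h vs 2h (0.10 ± 0.15, adjusted p = 0.624), rev vs 4h (0.29 ± 0.15, adjusted p = 0.148) and rev vs 0h (-0.33 ± 0.15, adjusted p = 0.178) did not pass. By clone, rev vs 4h was at -0.07 ± 0.18 in clone 4 (adjusted p = 0.82) and 0.69 ± 0.18 in clone 8 (adjusted p = 0.0093, edgeR). The clone difference of 0.76 in that step did not pass (adjusted p = 0.137). Of 9 epithelial genes (Cdh1, Cldn4, Cldn6, Cldn7, Epcam, Esrp1, Esrp2, Rab25, St14), 1 was higher (Epcam) and 1 lower (Esrp2) at 2h, with a median of -0.10. At 4h against 0h 8 were lower, with a median of -1.93 where the median of all genes was 0.03, and in rev vs 4h all 9 were higher, with a median of 1.76. Cldn6, a tight junction claudin, fell by 3.29 ± 0.30 in 4h vs 0h (adjusted p = 1.47e-06), and Cdh1, E-cadherin, by 0.81 ± 0.10 (adjusted p = 2.97e-06). At 2h, where Grhl2 was lower, 7 of the 9 had not passed the test, though 3 of the 9 were at an unadjusted p under 0.05 (edgeR). On total counts the 2h call of Grhl2 itself is lost (adjusted p = 0.0941, edgeR). A link between Grhl2 and the epithelial genes was not tested. The related Grhl3 was 2.32 ± 0.27 higher at 4h than at 0h (adjusted p = 1.27e-06), and Grhl1 was at 0.10 ± 0.23 (adjusted p = 0.745).

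**Figure D3:**
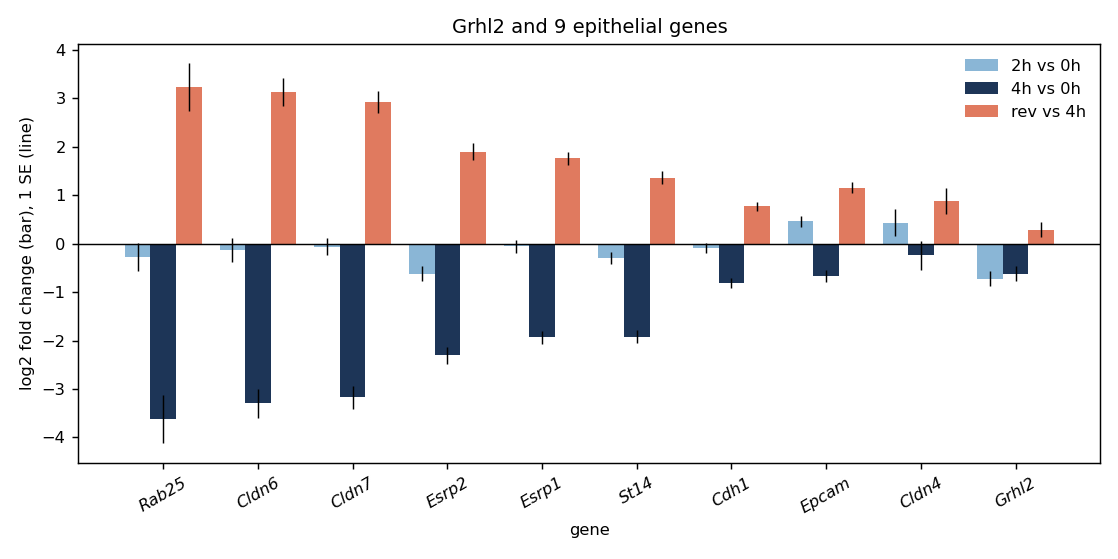
Log2 fold change (vertical axis; bars are estimates, lines 1 SE) of 9 epithelial genes and of Grhl2 (horizontal axis) in 3 comparisons. Grhl2 is at -0.72 at 2h and -0.62 at 4h against 0h, while Cldn6 is at -0.13 and -3.29 and returns by 3.14 in rev vs 4h.

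In 4h vs 0h the value of each of the 9 genes had the same sign in both clones, whether it passed the test or not. Clone 8 differed from clone 4 in level for 5 of the 9 genes, against 18.5% of all tested genes: Otx2 and Foxd3 were higher, and Zic5, Zic2 and Fgf5 (-0.40 ± 0.14, adjusted p = 0.0452, edgeR) were lower. The Fgf5 level difference ends when any 1 of 10 of the 15 libraries is left out, with adjusted p from 0.0582 to 0.112, while those of Otx2, Foxd3, Zic2 and Zic5 pass without any single library. On total counts those of Otx2 and Zic5 pass. By edgeR a difference between the clones in response was called for 0 of the 9 genes in 4h vs 0h (3.87% of all genes; 1 of the 9 at an unadjusted p under 0.05), for Fgf5 alone in 4h vs 2h (3.14%) and for 0 in rev vs 4h (2.80%; 5 at an unadjusted p under 0.05). DESeq2 called 0 of the 9 in each of the 3. For Fgf5 in rev vs 4h the clone difference was 1.08 ± 0.29 (adjusted p = 0.0514), with a rise of 1.51 ± 0.21 in clone 8 (adjusted p = 3.55e-05) and a value of 0.43 ± 0.20 in clone 4 (adjusted p = 0.155). For Pou3f1 it was 0.59 ± 0.17 (adjusted p = 0.0804), with a rise of 0.84 ± 0.12 in clone 8 (adjusted p = 6.22e-05) and 0.25 ± 0.12 in clone 4 (adjusted p = 0.175). Sox3 (0.79), Grhl2 (0.76), Sox4 (0.68) and Otx2 (0.09) also had positive clone differences in rev vs 4h, and Foxd3 (-0.105), Zic2 (-0.16) and Zic5 (-0.06) negative ones, none of them called. The induction genes (Spry2, Spry4, Dusp6, Egr1) rose less from 0h to 4h in clone 8, with a median clone difference of -1.78 (1 clone 4 library at 0h). In 4h vs 2h their median clone difference was -0.66. Dusp6 (-1.49) and Egr1 (-2.54) fell in that step with the clones pooled, and edgeR called a lower value in clone 8 for both. The part of this in the responses of the 9 genes was not tested.

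**Figure D4:**
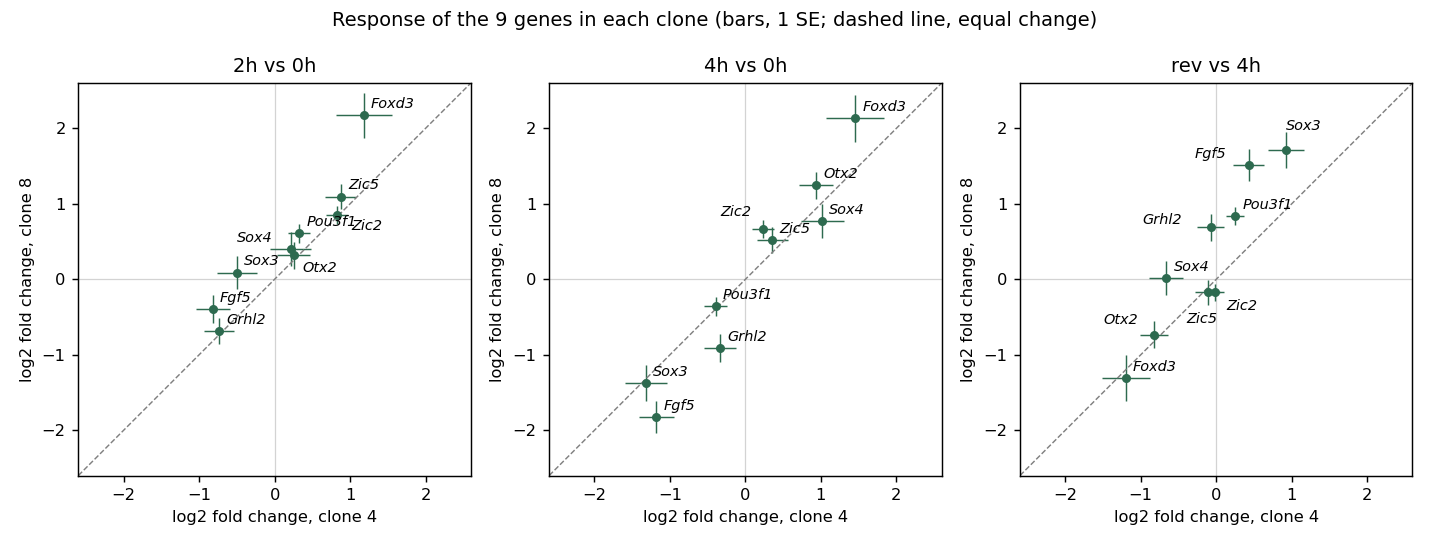
Log2 fold change in clone 4 (horizontal axis) against clone 8 (vertical axis) for the 9 genes in 3 comparisons; bars are 1 SE (the 0h group of clone 4 is 1 library, assumed to vary like the others) and the dashed line marks equal change. At 4h vs 0h Otx2 is at 0.94 and 1.24 and Fgf5 at -1.18 and -1.83. In rev vs 4h Fgf5, Sox3, Grhl2, Sox4 and Pou3f1 lie furthest above the line, and Foxd3, Zic2 and Zic5 just below it. On total counts the pooled 4h vs 0h values of Zic2 and Zic5 turn negative.

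Other genes of the formative programme, 16 in the list used here, moved in both directions. At 2h 2 changed, both lower (Sall2, Utf1). At 4h against 0h 6 were higher (Cdh2, Etv5, Lef1, Rbpj, Sox11, Tcf7l1) and 3 lower (Dnmt3a, Dnmt3b, Nodal), with a median of 0.39. On total counts 0 were higher and 7 lower in edgeR (8 in either direction at an unadjusted p under 0.05), with a median of -0.33, and DESeq2 on its own size factors called 6 higher and 3 lower. On total counts Etv5, Sox11 and Tcf7l1 turned negative. Lef1, a nuclear effector of WNT signalling, rose by 1.08 ± 0.15 (adjusted p = 1.44e-05), and Dnmt3b, the de novo DNA methyltransferase of the formative state, fell by 1.18 ± 0.08 (adjusted p = 5.42e-10, edgeR). In rev vs 4h 8 were lower and 3 higher (Dnmt3a, Dnmt3b, Lin28b). Dnmt3b rose by 0.72 ± 0.07 there (adjusted p = 2.35e-07), the direction of Fgf5, Sox3 and Pou3f1, and Lef1 fell by 1.08 ± 0.14 (adjusted p = 6.32e-06), the direction of Otx2 and Foxd3.

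Naive genes other than Klf4 moved in the directions of Otx2 at 4h and in rev. Of 12 (Nanog, Klf2, Klf4, Klf5, Esrrb, Tfcp2l1, Tbx3, Prdm14, Zfp42, Dppa3, Nr0b1, Tcl1), 0 passed at 2h by edgeR (2 at an unadjusted p under 0.05, and 1 by DESeq2), all but Klf4 were higher in 4h vs 0h (median 2.55) and all but Klf4 were lower in rev vs 4h (median -2.06, where that of all genes was 0.02). They summed to between 42.1 and 52.6 CPM at 0h, 48.0 and 53.8 CPM at 2h, 159 and 350 CPM at 4h and 54.5 and 68.5 CPM in rev. The size of this rise differed between the clones for some of the 12. Their median clone difference (clone 8 against clone 4) was 1.79 in 4h vs 0h (1 clone 4 library at 0h) and 1.3 in 4h vs 2h. In 4h vs 2h edgeR called a higher value in clone 8 for Esrrb and Nanog and a lower one for Klf5, with 9 not called. Nanog lay between 14.1 and 88.3 CPM at 4h against 14.0 to 14.4 CPM at 0h. Of 5 neural markers, 2 were higher (Pax6, Sox1) and 1 lower (Tubb3) in 4h vs 0h, with the 5 summing to between 51.3 and 70.8 CPM at 4h against 20.1 to 31.2 CPM in the other groups, Neurog2 at 0 in all 4h libraries and Sox1 at 32.1 ± 6.57 CPM (SD, n = 4). The 6 mesendoderm genes summed to between 5.15 and 7.26 CPM at 2h, 5.92 and 12.1 CPM at 4h and 8.61 and 13.5 CPM in rev. The 5 trophoblast genes (Cdx2, Elf5, Gata3, Tfap2c, Krt8) summed to between 6.02 and 10.1 CPM at 0h, 11.8 and 32.8 CPM at 2h, 7.28 and 23.2 CPM at 4h and 15.3 and 41.7 CPM in rev, with Elf5 at 0 in all 4h libraries. The part of these lists in the changes of the 9 genes was not tested.

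Per kilobase of exon, Pou3f1, Sox3 and Zic2 were the highest of the 9 in every group. At 0h they stood at 20.6 ± 3.54, 18.8 ± 3.63 and 17.5 ± 4.44 CPM per kb (SD, n = 3), which do not differ beyond their spread, followed by Fgf5 at 9.26 ± 1.98. Zic5 (3.51 ± 1.45), Sox4 (3.47 ± 0.50) and Otx2 (2.91 ± 0.71) came next with overlapping spreads. Grhl2 (2.27 ± 0.15) lay within the spread of Otx2 and Zic5 and below that of Sox4, and Foxd3 was lowest at 1.28 ± 0.08. At 4h Zic2 led with 25.3 ± 2.28 and Pou3f1 followed with 16.6 ± 2.73 CPM per kb (SD, n = 4). Otx2 at 5.94 ± 2.27 had passed Fgf5 at 3.61 ± 1.80 in mean, though with overlapping spreads, and Grhl2 was lowest at 1.52 ± 0.46. That crossing was seen in clone 8 alone, with Otx2 at 7.23 and 8.48 and Fgf5 at 2.55 and 1.96. In clone 4 Otx2 was at 3.91 and 4.15 and Fgf5 at 3.91 and 6.02. In rev Fgf5 (6.68 ± 0.75) was again above Otx2 (3.49 ± 1.45).

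Across the 15 libraries, log2 CPM of Zic2 and Zic5 correlated at r = 0.93 (Pearson), Fgf5 and Grhl2 at 0.78 and Pou3f1 and Sox3 at 0.77. Opposed pairs were Otx2 and Fgf5 at -0.79 and Foxd3 and Grhl2 at -0.78. The libraries share groups, clones and depth, so these values describe the courses only. Among 8346 genes with a mean of at least 5 CPM, those most like Otx2 were Pml (0.97), Wnk1 (0.96) and Nphs1 (0.95), and those most like Fgf5 were Ptrh2 (0.93), Jph4 (0.92) and Stard10 (0.92). Nphs1, the gene of the slit diaphragm protein nephrin, changed by 1.03 ± 0.14 in 4h vs 0h and -0.93 ± 0.13 in rev vs 4h, next to 1.13 and -0.78 for Otx2. Stard10, a lipid transfer protein gene, changed by -1.58 ± 0.26 and 0.96 ± 0.25, next to -1.44 and 0.93 for Fgf5.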

How the data were processed

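The authors deposited raw counts per gene for 15 libraries; the submitters' processing notes name bcl2fastq 2.19.1, STAR 2.5.3a and mm10, and the counting tool, annotation and strand setting are not given in the sources used here. The members and gene lists were chosen with earlier results of these data known. Names, positions and exon overlaps come from GENCODE M21 (GRCm38). The work used edgeR 4.0.16 in R 4.3.3. Low genes were removed by filterByExpr (minimum count 10, minimum total 15), libraries were TMM scaled, and a model of clone and group over all 15 libraries was tested with the two-sided quasi-likelihood F test (robust, Benjamini-Hochberg over all 13451 genes, threshold 0.05). Clone differences came from a model with 1 mean per clone and group. CPM are counts on effective library sizes, and log2 CPM (prior count 2) served for likeness. Steps were tested on simulated data. Alternatives were DESeq2 1.42.0 (test and size factors), total count scaling, no filter, no abundant genes, no clone term, a replicate block, only the groups compared, each library left out and, chosen after seeing the data, the older edgeR quasi-likelihood form and DESeq2 for the clone differences. Genes named outside the members are list members, paralogs or the 3 genes most like Otx2 and Fgf5, and those singled out from the lists were chosen after their values were seen. Some genes of the lists are not reported here and were left out of their counts. Reads carry no molecular identifiers.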

Additional observations from a re-analysis of the deposited data

Results flagged for a closer look

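Sox4 in rev had 1 library apart from the others: clone 8 replicate 1 at 29.9 CPM against 23.9 to 24.6 CPM, a gap of 0.879 of the range of the group. It was the only case among 27 groups of 4 libraries looked at over the 9 genes, and chance gives such a gap in about 1 of 20 groups. Without that library Sox4 in rev vs 0h was at 0.43 (adjusted p = 0.169, edgeR).

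Fgf5 differed between the clones in 4h vs 2h, by -1.074 on the log2 scale (adjusted p = 0.0497, edgeR). The clone 8 libraries went from 16.8 and 14.1 CPM to 6.37 and 4.9 CPM, and those of clone 4 from 16.2 and 16.4 CPM to 9.77 and 15.1 CPM. The 4h values rest on 13 to 61 reads.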

How the results depend on the processing

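Of 666 values from fits without 1 library, 604 kept their direction and side of the threshold, 34 lost their call, 3 gained one and 25 turned; of 540 from the other alternatives these were 478, 32, 13 and 17. Total count scaling changed most: it left 1 member called in 2h vs 0h (1.98% of all genes), 5 in 4h vs 0h (49.8%), 5 in 4h vs 2h (39.8%), 3 in rev vs 4h (23.5%), 0 in rev vs 0h (5.72%), 2 in level between clones (5.69%) and 0 in the clone difference of 4h vs 2h (1.09%). It turned Zic2 (-0.239) and Zic5 (-0.289) in 4h vs 0h, Foxd3 (-0.509) and Grhl2 (-0.474) in 4h vs 2h, Sox4 (0.068), Zic2 (0.292) and Zic5 (0.277) in rev vs 4h, Pou3f1 (-0.141), Sox3 (-0.324) and Zic5 (-0.012) in rev vs 0h, and the clone differences of Otx2 (-0.273) and Zic2 (-0.174) in 4h vs 2h and of Otx2 (-0.026) in rev vs 4h. With no filter, Foxd3 (-0.021) and Grhl2 (-0.008) turned in 4h vs 2h. The older edgeR form, chosen after seeing the data, turned Sox3 in level between clones (0.011) and in the clone difference of 4h vs 0h (0.008), and left 0 clone differences in 4h vs 2h, as did DESeq2, also added then (Fgf5 -1.107, adjusted p = 0.131). Without the clone term 4 members were called in 4h vs 2h and 0 in rev vs 0h. In rev vs 0h DESeq2 size factors gave 1 and the groups compared alone 4, and in the clone difference of rev vs 4h DESeq2 size factors gave 1. The cause of these changes was not tested.

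Leaving out 1 library at a time gave 0 to 2 calls in rev vs 0h, and 0 to 1 in the clone differences of 4h vs 2h and of rev vs 4h. Values that turned then, none called with all libraries, ranged from -0.076 to 0.288 for Foxd3 and -0.073 to 0.241 for Grhl2 in 4h vs 2h, -0.297 to 0.025 for Sox3 in 2h vs 0h, -0.109 to 0.209 for Sox3 in rev vs 0h and -0.143 to 0.057 for Sox3 between clones. Clone differences ranged from -0.495 to 0.532 (Foxd3), -0.035 to 0.256 (Otx2) and -0.259 to 0.119 (Zic5) in rev vs 4h, -0.051 to 0.142 (Pou3f1), -0.427 to 0.374 (Sox3) and -0.526 to 0.001 (Sox4) in 4h vs 0h, and -0.267 to 0.116 (Zic5) in 4h vs 2h.

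Same-numbered libraries of a clone deviated together at r over 0.1 in 1 of 9 pairs of groups (r from -0.194 to 0.261). That pair was 2h and rev of clone 4. Low correlations between differences of single libraries cannot decide whether the numbers pair libraries. With a replicate block, 5 members were called at 2h (4.85% of all genes) and 8 at 4h (36.4%) against 0h, 7 in 4h vs 2h (38.5%), 5 in rev vs 4h (30.7%) and 2 in rev vs 0h (8.21%); Pou3f1 in 4h vs 0h (adjusted p = 0.0557, edgeR) and Sox4 in rev vs 0h (adjusted p = 0.0502) lost their call and Foxd3 in rev vs 0h gained one (adjusted p = 0.0365). Depth limits the 4h values most, down to 13 reads for Fgf5.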
